A study of Rattus norvegicus with 10 samples.

Results

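The signal-transducing Smads are the proteins that carry signals of the TGF-beta superfamily from the cell surface to the nucleus, and 13 probe sets of the deposited array table name 1 of their 6 genes and no other gene. They were taken by the platform annotation alone, from 14217 named genes and 31099 probe sets on 10 arrays, and comprise 2 for Smad1, 4 for Smad5, 2 for Smad9, 1 for Smad2, 2 for Smad3 and 2 for Smad4. The cells are labelled A7r5, a smooth muscle line from embryonic rat aorta, grown without hypoxia in medium with 10% serum to about 50% confluence, and each of the 5 groups holds 2 arrays. The descriptions give every group a stable transfection: BMPR2 with the deletion 2579-2580delT in the cytoplasmic tail (CD mutant), BMPR2 with C994T in the kinase domain (KD mutant), BMPR2 with T354G in the extracellular domain (ED mutant), wild-type human BMPR2, or an empty vector. The labels of the empty vector group conflict, since its titles call the cells native A7r5 while its descriptions and transfection field name an empty vector, and each comparison with this group rests on the second reading. The labels name the species of the construct for wild type only, and give neither a promoter nor how many clones were used. They also do not state that paired arrays stem from separate cultures. The p-values therefore describe array-to-array spread, possibly technical, and precision is limited to what 2 arrays per group allow.

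BMPR2 is a type II receptor. On binding a bone morphogenetic protein (BMP), it phosphorylates a type I receptor, which in turn phosphorylates the receptor-regulated Smads 1, 5 and 9, whereas receptors for TGF-beta and activin act on Smads 2 and 3. Both branches share Smad4, the partner that phosphorylated Smads bind before they act in the nucleus, and Smads 6 and 7 inhibit the pathway. Germline mutations of BMPR2 cause heritable pulmonary arterial hypertension, a disease in which vascular smooth muscle cells overgrow. The arrays measure transcripts and not phosphorylation, the step by which these Smads are activated.

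Levels are given on the log2 scale of the authors' deposited RMA table. Testing was limited to the 22502 probe sets with 2 or more arrays at or above log2 4.82, the 40th percentile of the whole table, and a change was called at an adjusted p under 0.05 in limma (Benjamini-Hochberg over all tested probe sets). Of the 13 Smad probe sets 11 were tested, and both that name Smad9 stayed below this level on every array. Levels of different probe sets are not set against each other, since each has its own affinity. The 2 KD mutant arrays stood apart from the rest, with correlations of 0.709 to 0.719 with the other 8 arrays across probe sets, against 0.992 to 0.996 among those 8 and 0.992 between the pair. Probe sets of smooth muscle genes averaged 7.87 and 8.11 on the KD mutant arrays and 5.65 to 5.81 on the other 8, over a list of 9 of which 7 and 5 had means at or above the filter level. Of the 7 tested genes of that list, 5 were higher and 1 lower in the KD mutant than in wild type. Over all tested probe sets 34.5% were called higher and 55.1% lower in that comparison. Among the 5, Cnn1 and Actg2 met the filter only through the KD mutant arrays, where they were high. Tagln, Cnn1 and Actg2 averaged at most 5.10 in any of the other 4 groups, and Acta2 lay between 6.20 and 6.32 there by group mean. Smtn went the other way, with a mean of 8.34 in the KD mutant, against 10.34 to 10.46 in the other groups, and Myh11 averaged 6.95 in the KD mutant, against 6.69 to 6.97. The epithelial list of 9 averaged 6.96 to 7.26, against 5.35 on both KD mutant arrays. The 24 poly-A control probe sets averaged 6.95 on the KD mutant arrays, against 7.49 to 8.62 on the others. The 18 hybridization control probe sets averaged 10.44 there, against 11.16 to 11.35 on the others. The list of 8 fibroblast and matrix genes had array averages of 7.32 to 7.37 in the KD mutant, against 4.82 to 5.06 elsewhere. Its members did not all go this way. Among the 6 tested, 4 were called higher and 2 lower in the KD mutant than in wild type. Of the 4 higher, Col1a2 met the filter only through the KD mutant arrays, at 13.46 and 13.78. It read 3.56 to 4.18 on the other 8, so the size of its difference is not measured exactly. The 2 lower were Pdgfra, with means of 4.25 against 5.53 in wild type, and Pdgfrb, with 5.59 against 6.52. For endothelial genes, 0 of 4 had a mean at the filter level, whether in the KD mutant or over the other 8 arrays. In RNA from whole cultures, fewer cells of a type and less RNA per cell cannot be told apart. What part these differences have in the Smad values was not tested, and the construct and the rest of what sets the KD mutant arrays apart cannot be told apart.

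**Figure D1:**
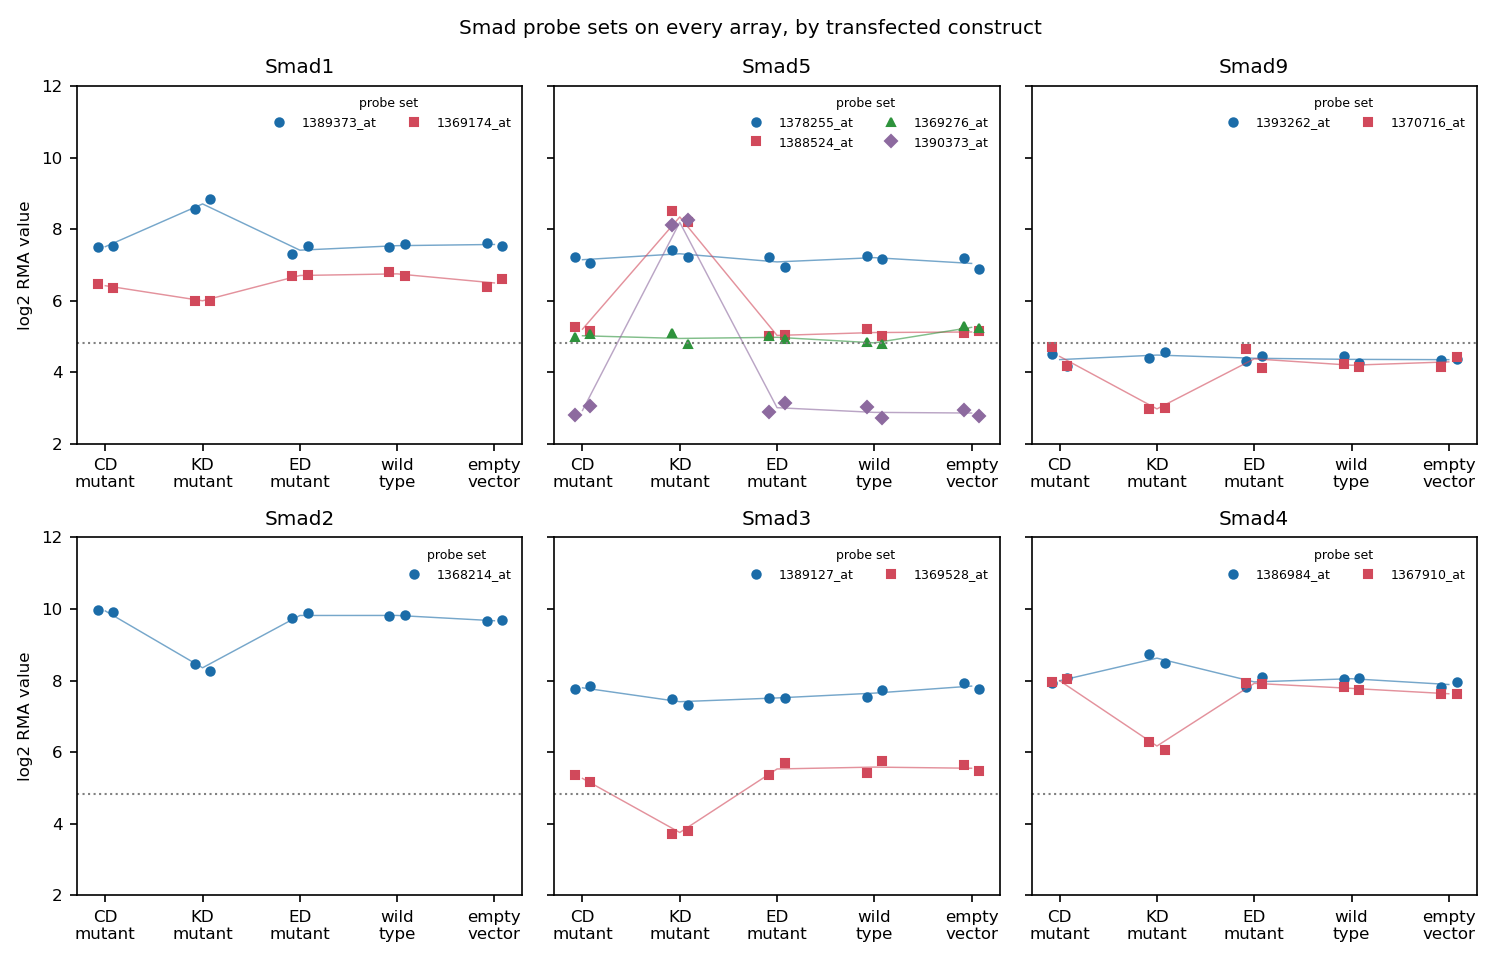
Log2 RMA values (vertical axis) of the 13 Smad probe sets on each of the 10 arrays, by transfected construct (horizontal axis). Points are arrays, thin lines join group means, and the dotted line marks the filter level of 4.82. The KD mutant arrays depart from the other 8 in both directions, by probe set, and the Smad9 probe sets lie below the dotted line throughout.

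On the KD mutant arrays, transcripts of the BMP-branch Smads gave readings that differed by probe set. Smad1, which is phosphorylated by BMP type I receptors, read 8.56 and 8.84 in the KD mutant, against 7.50 and 7.57 in wild type, by probe set 1389373_at. It was 2.25-fold higher in the KD mutant (log2 difference 1.17, SE 0.12, adjusted p = 1.72e-06 in limma), and the arrays did not overlap. The other Smad1 probe set, 1369174_at, went the opposite way, with 5.99 on both KD mutant arrays and 6.81 and 6.69 in wild type. This fall of 1.68-fold also passed the test (log2 difference -0.75, adjusted p = 2.80e-05 in limma). The KD mutant values of the first probe set lay above all 8 other arrays, whose range was 7.29 to 7.61, and those of the second lay below all 8, at 6.35 to 6.81.

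Smad5, the close relative of Smad1 in the same branch, held the largest differences of the family. Probe set 1388524_at read 8.49 and 8.19 in the KD mutant, against 5.19 and 5.02 in wild type, a 9.4-fold rise (log2 difference 3.23, 95% confidence interval 2.97 to 3.50, adjusted p = 1.72e-10 in limma). Probe set 1390373_at read 8.12 and 8.26 in the KD mutant, against 3.02 and 2.72 in wild type (log2 difference 5.32, adjusted p = 1.32e-11 in limma). This probe set reached the filter level on the KD mutant arrays alone, so it entered the test through the group in which it was high. All 8 other arrays lay between 2.72 and 3.13, under the filter level, and the size of the difference is therefore not measured exactly. The other Smad5 probe sets did not pass against wild type. Of these, 1378255_at read 7.41 and 7.21 in the KD mutant, against 7.25 and 7.15 in wild type, with an interval of the log2 difference of -0.19 to 0.41. Probe set 1369276_at read 5.09 and 4.79 in the KD mutant, against 4.84 and 4.79 in wild type, with an interval of -0.13 to 0.38, and it passed without KD mutant replicate 2 (log2 difference 0.28, adjusted p = 0.0292). Their arrays overlapped with wild type. After quantile normalization 1378255_at turned to -0.40 (adjusted p = 0.016), and after centring it was 0.50 (adjusted p = 0.00398). Probe set 1369276_at was called higher after both, at 0.54 after quantile normalization (adjusted p = 0.000477) and 0.52 after centring (adjusted p = 0.00106).

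Smad9, the remaining BMP-branch Smad, was dim on all arrays. Probe set 1393262_at read 4.39 and 4.56 in the KD mutant, against 4.45 and 4.26 in wild type. Probe set 1370716_at read 2.96 and 2.98 in the KD mutant, against 4.23 and 4.15 in wild type. The arrays overlapped for the first and not for the second, and neither was tested.

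Smad2 and Smad3, the Smads of the TGF-beta and activin branch, read lower on the KD mutant arrays where they passed the test. Smad2 has a single probe set, 1368214_at, which read 8.45 and 8.27 in the KD mutant, against 9.80 and 9.84 in wild type. That is a 2.76-fold fall (log2 difference -1.46, SE 0.10, adjusted p = 5.48e-08 in limma), and both KD mutant arrays lay below the other 8, which spanned 9.66 to 9.97. Smad3 fell by probe set 1369528_at, with 3.72 and 3.78 in the KD mutant, against 5.41 and 5.74 in wild type (log2 difference -1.83, adjusted p = 1.84e-07 in limma). Since its KD mutant values lie under the filter level, the size of this fall is not measured exactly. The other Smad3 probe set, 1389127_at, read 7.49 and 7.32 in the KD mutant, against 7.55 and 7.74 in wild type. The arrays did not overlap, but the log2 difference of -0.24 did not pass (95% confidence interval -0.48 to 0.01, adjusted p = 0.0603 in limma). It passed when KD mutant replicate 1 was left out (log2 difference -0.32, adjusted p = 0.0283) or wild-type BMPR2 replicate 1 (-0.33, adjusted p = 0.0414). It also passed after quantile normalization, at -0.79 (adjusted p = 3.01e-05), and with trend and robust variance (adjusted p = 0.0397).

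Smad4, the shared partner, gave opposite readings by its 2 probe sets. Probe set 1367910_at read 6.29 and 6.05 in the KD mutant, against 7.81 and 7.74 in wild type, a 3.06-fold fall (log2 difference -1.61, SE 0.11, adjusted p = 3.35e-08 in limma). Probe set 1386984_at read 8.75 and 8.50 in the KD mutant, against 8.04 and 8.06 in wild type, a 1.49-fold rise (log2 difference 0.58, adjusted p = 0.00117 in limma). After quantile normalization the second probe set no longer differed in that direction, with a log2 difference of -0.07 (adjusted p = 0.619), while the fall of the first remained a call. On the 8 other arrays the gap between the pair, 1386984_at minus 1367910_at, ran from -0.11 to 0.33, and on the KD mutant arrays it was 2.46 and 2.45. Such gaps stood apart for other pairs too: for Smad1, 1389373_at minus 1369174_at was 2.57 and 2.85 in the KD mutant and 0.60 to 1.22 on the others.

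In all, 4 of the 11 tested Smad probe sets were called higher and 4 lower in the KD mutant than in wild type, where 89.6% of all 22502 tested probe sets were called (34.5% higher and 55.1% lower), so a share of 8 in 11 is not a result about the Smads. Groups did not overlap for 9 of the 11, against 93.8% of all. The median log2 difference of the 11 was 0.11, against -0.56 over all tested probe sets. That median over all was -0.46 after quantile normalization and -0.10 once arrays were centred on their medians. Quantile normalization called 5 Smad probe sets higher and 6 lower of 12 tested, and centring 6 higher and 4 lower of 11. Over all calls 38.5% were higher in the deposited values and 48.3% after centring. Against empty vector, where 89.7% of all tested probe sets were called (34.5% higher and 55.1% lower) and 93.8% did not overlap, 4 Smad probe sets were higher in the KD mutant and 6 lower, and 11 of 11 did not overlap. The 2 added to the falls were Smad3 1389127_at (log2 difference -0.44, adjusted p = 0.00278) and Smad5 1369276_at (-0.31, adjusted p = 0.0232), both in limma. Smad5 1378255_at, at 0.27 (adjusted p = 0.0802), passed without KD mutant replicate 2 (adjusted p = 0.0475) or empty vector replicate 1 (adjusted p = 0.0295), and after centring, at 0.65 (adjusted p = 0.000658). The call of Smad5 1369276_at was lost without KD mutant replicate 2 (-0.16, adjusted p = 0.18) and without empty vector replicate 1 (-0.28, adjusted p = 0.103), and after either scaling its log2 difference was 0.07. After quantile normalization Smad4 1386984_at differed by 0.12 from empty vector (adjusted p = 0.416). After centring, Smad3 1389127_at differed by -0.06 (adjusted p = 0.65) and Smad1 1369174_at by -0.12 (adjusted p = 0.311) from empty vector. The comparisons with wild type and with empty vector share the KD mutant arrays. Within the 4 Smad genes that have at least 2 tested probe sets, Smad1 and Smad4 had calls in both directions against wild type, as did 1150 of 3376 genes (34.1%) in the whole table.

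**Figure D2:**
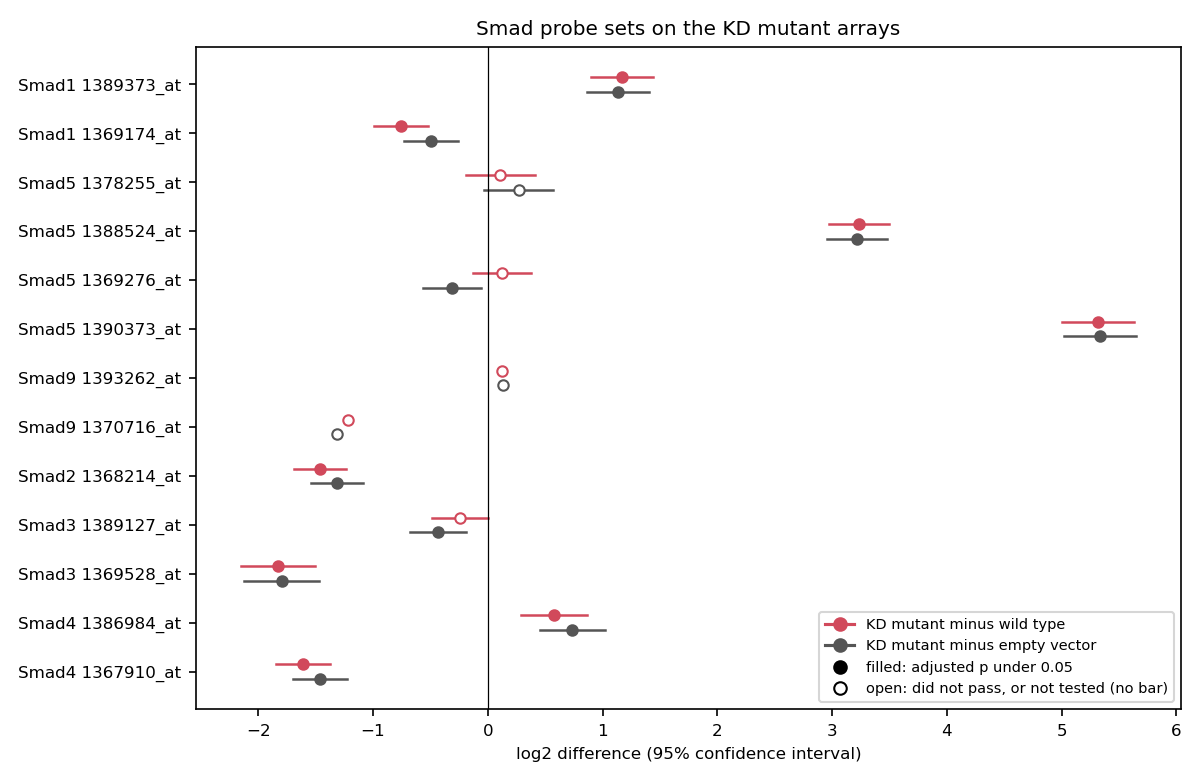
Log2 differences (horizontal axis) of the 13 Smad probe sets, KD mutant minus wild type in red and KD mutant minus empty vector in grey, with 95% confidence intervals from the limma fit. Filled points passed at an adjusted p under 0.05, open points did not, and the Smad9 points, without bars, were not tested. Smad1 and Smad4 each have a probe set on either side of 0, and the intervals of Smad5 1388524_at and 1390373_at lie furthest to the right.

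Among the other 4 groups no Smad probe set passed the test. Smad5 1390373_at, 1 of the 11 tested, lay under the filter level on every array of these groups, so its lack of a call says little. A filter and fit without the KD mutant arrays tested 10 Smad probe sets and called 0. Setting the CD and ED mutants against wild type asks whether a tail or an extracellular mutation changes Smad transcripts relative to the intact receptor. In the CD mutant, of the 11 tested, 0 were called in limma, 1 had an unadjusted p under 0.05 (3.48% of all), and 0% of all probe sets were called. Groups did not overlap for 6 of 11, against 34.1% of all. The lowest p belonged to Smad1 1369174_at, which read 6.47 and 6.35 in the CD mutant, against 6.81 and 6.69 in wild type. Its arrays did not overlap, yet the log2 difference of -0.33 (95% confidence interval -0.57 to -0.10) had an adjusted p of 1 in limma. In the ED mutant, 0 of 11 were called against wild type and 0 had an unadjusted p under 0.05 (7.65% of all), beside 0.164% of all probe sets called, and groups did not overlap for 3 of 11, against 42.1% of all. Smad2 in particular read 9.76 and 9.88 in the ED mutant, against 9.80 and 9.84 in wild type, with an interval of -0.23 to 0.23 for the log2 difference. Over the 11 probe sets, the log2 differences from wild type ran from -0.33 to 0.21 for CD and from -0.13 to 0.16 for ED.

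Against empty vector, 1 probe set each of Smad4 and Smad5 and that of Smad2 had all 6 receptor arrays on the same side of empty vector, without passing. Smad4 1367910_at read 7.95 and 8.04 with CD, against 7.93 and 7.91 with ED, 7.81 and 7.74 in wild type, and 7.63 on both empty vector arrays. No array of the 3 receptor groups overlapped with empty vector, and the order from the CD mutant down to empty vector held without overlap between neighbours. The log2 difference from empty vector was 0.36 in the CD mutant (95% confidence interval 0.13 to 0.60, adjusted p = 0.327 in limma), 0.29 in the ED mutant (0.05 to 0.53, adjusted p = 0.316) and 0.15 in wild type (-0.09 to 0.39, adjusted p = 0.925). For wild type, CD and ED as 1 group of constructs it was 0.27 (0.08 to 0.46, adjusted p = 0.294). The other Smad4 probe set, 1386984_at, did not show this order, with 7.92 and 8.07 with CD, 7.81 and 8.11 with ED, 8.04 and 8.06 in wild type, and 7.82 and 7.96 with empty vector. Across these 8 arrays the pair had a Pearson correlation of 0.28, given as a description.

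Smad5 1369276_at ran the other way, with empty vector highest. It read 4.98 and 5.05 with CD, 5.01 and 4.93 with ED, 4.84 and 4.79 in wild type, and 5.28 and 5.22 with empty vector. All 6 receptor arrays lay below both empty vector arrays, CD and ED overlapped, and wild type was lowest, at the filter level. The log2 difference from empty vector was -0.43 in wild type (95% confidence interval -0.69 to -0.18, adjusted p = 0.402 in limma) and -0.32 for the 3 groups together (-0.52 to -0.11, adjusted p = 0.246). In a filter and fit without the KD mutant arrays, the difference for the 3 groups together had an adjusted p of 0.0833, the lowest that any Smad probe set reached under any alternative in the 7 comparisons without the KD mutant. Another Smad5 probe set, 1378255_at, did not separate the groups, reading 7.23 and 7.06 with CD, 7.21 and 6.95 with ED, 7.25 and 7.15 in wild type, and 7.18 and 6.89 with empty vector.

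Smad2 read 9.97 and 9.92 with CD, 9.76 and 9.88 with ED, 9.80 and 9.84 in wild type, and 9.66 and 9.69 with empty vector. Empty vector was lowest without overlap, the CD mutant was highest without overlap, and ED and wild type overlapped. The largest difference from empty vector was 0.27 in the CD mutant (95% confidence interval 0.05 to 0.50, adjusted p = 0.473 in limma). Smad3 1389127_at was lowest in the ED mutant, at 7.51 on both arrays, against 7.92 and 7.77 with empty vector. This log2 difference of -0.33 (-0.58 to -0.09) had an adjusted p of 0.261 in limma. The CD mutant, at 7.76 and 7.84, overlapped with empty vector, and wild type, at 7.55 and 7.74, lay between the ED mutant and empty vector. Smad1 1369174_at was higher in the ED mutant and wild type than with empty vector, at 6.69 and 6.71 in the ED mutant, 6.81 and 6.69 in wild type and 6.39 and 6.59 with empty vector, with adjusted p of 0.515 and 0.721 in limma.

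Counted over the 11 tested probe sets, 0 were called in each of the comparisons with empty vector. These 11 include Smad5 1390373_at, which was tested only through the KD mutant arrays and lay under the filter level in every group compared here. The number with an unadjusted p under 0.05 was 2 in the CD mutant, 3 in the ED mutant, 2 in wild type and 3 for these groups together, against 8.74%, 11.4%, 6.54% and 9.87% of all tested probe sets. In that order limma called 0.111%, 0.529%, 0.0133% and 0.200% of all probe sets there. Arrays did not overlap between the groups for 5, 7, 6 and 3 of the 11 in the same order, where 41.1%, 45.0%, 42.0% and 13.5% of all tested probe sets did not. The ED mutant set against the CD mutant called 0 of 11 Smad probe sets and 0.351% of all, with 2 Smad probe sets at an unadjusted p under 0.05 (9.39% of all) and 5 of 11 not overlapping, against 41.0% of all. The comparisons with empty vector share its arrays. Poly-A controls averaged 8.59 in the CD mutant, 8.26 in the ED mutant, 7.91 in wild type and 7.89 with empty vector. By group mean this order is like that of Smad4 1367910_at. By array it did not hold, since wild type, at 7.49 and 8.34, overlapped with the ED mutant and with empty vector. The part of these controls in the Smad4 order was not tested.

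**Figure D3:**
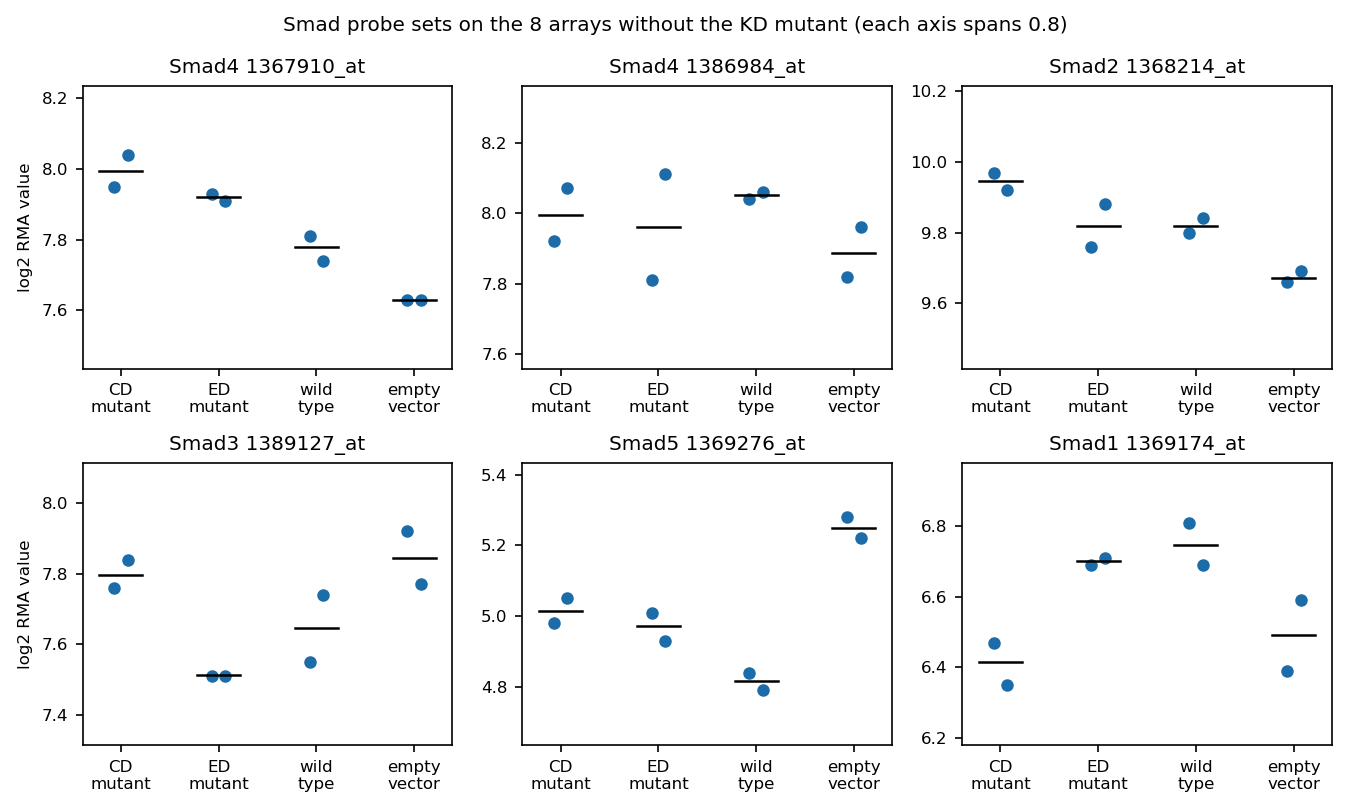
Log2 RMA values (vertical axes, each spanning 0.8) of 6 Smad probe sets on the 8 arrays of the CD mutant, ED mutant, wild type and empty vector. Points are arrays and bars are group means. Smad4 1367910_at and Smad2 are lowest with empty vector, Smad5 1369276_at is highest there, and Smad4 1386984_at shows no such order.

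**Figure D4:**
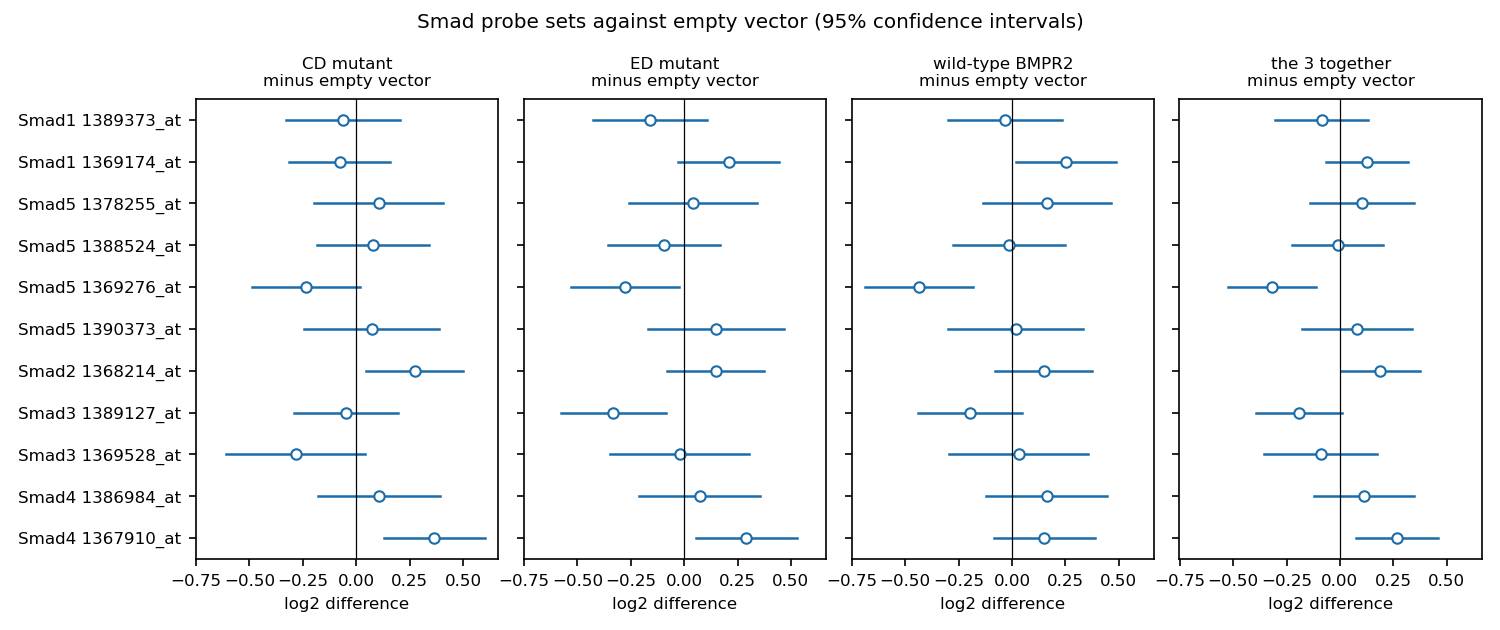
Log2 differences from empty vector (horizontal axes) of the 11 tested Smad probe sets in the CD mutant, the ED mutant, wild type and the 3 together, with 95% confidence intervals. All points are open because 0 of 11 passed in any panel. The intervals of Smad4 1367910_at lie above 0 in all panels but wild type, and those of Smad5 1369276_at lie below 0 in all but the CD mutant.

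The precision of these null results can be read from the intervals. For wild type, CD and ED together against empty vector, the widest interval among the 11 belonged to Smad3 1369528_at, from -0.36 to 0.18. Comparisons between single groups were less precise. For the same probe set the interval of CD against wild type ran from -0.64 to 0.01. That of Smad5 1369276_at in wild type against empty vector ran from -0.69 to -0.18. The largest Smad log2 difference in the 7 comparisons was -0.43. The median size over the 11 Smad probe sets was 0.10 to 0.15 by comparison, against 0.08 to 0.11 over all tested probe sets.

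The rest of the pathway was read from lists of receptors, inhibitory Smads, regulators, nuclear partners and target genes, with 1 probe set per gene. Other probe sets of these genes were not read. Among genes with at least 2 tested probe sets, 34.1% had calls in both directions in the KD mutant against wild type. In the receptor list, 3 of 10 tested members were higher and 6 lower in the KD mutant than in wild type. Bmpr2 itself, by its probe set on this rat array, read 8.51 and 8.52 in the KD mutant, against 7.22 and 6.95 in wild type (log2 difference 1.43, adjusted p = 8.82e-07 in limma). Its means were 7.03 with CD, 6.90 with ED, 7.08 in wild type and 6.68 with empty vector, and wild type against empty vector did not pass (log2 difference 0.40, adjusted p = 0.593). Whether this probe set reads the transfected construct was not tested, and Bmpr2 is named here outside the rule for list members. Tgfbr1, the type I receptor that phosphorylates Smads 2 and 3, read 8.80 ± 0.03 in the KD mutant and 6.93 ± 0.20 in wild type (SD, n = 2 each), a log2 difference of 1.87 (adjusted p = 2.56e-08 in limma). Bmpr1a, a type I receptor for BMPs, was higher by 1.62 (adjusted p = 2.03e-07). The type II receptors Acvr2a and Acvr2b were lower, with log2 differences of -2.20 and -1.48 (adjusted p = 7.25e-10 and 3.21e-07). Both inhibitory Smads were lower: Smad7, which blocks type I receptors, read 5.11 and 5.10 in the KD mutant, against 6.53 and 6.42 in wild type (log2 difference -1.37, adjusted p = 9.59e-08). Smad6, which preferentially inhibits BMP signals, was lower by a log2 difference of -0.48 (adjusted p = 0.00105), and centring of the arrays left 1 call among these 2 genes.

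Regulators of Smad stability and location had 6 of 22 members higher and 14 lower in the KD mutant. Strap, which acts with Smad7 at the TGF-beta receptor, was higher by 3.81 (adjusted p = 1.48e-11 in limma), and the phosphatase gene Ctdsp1 by 2.23 (adjusted p = 6.17e-08). The ubiquitin ligase genes Wwp1 and Wwp2 were lower, with log2 differences of -2.07 and -1.99 (adjusted p = 6.84e-08 and 5.55e-09). Nuclear partners had 5 of 19 higher and 10 lower. Runx1, a transcription factor that binds Smads, was higher by 3.68 (adjusted p = 1.44e-11). The coactivator genes Crebbp and Wwtr1 and the corepressor gene Ncor1 were lower, with log2 differences of -1.64, -1.84 and -1.72. Of 15 tested target genes, 7 were higher and 7 lower: Ccn2, a matricellular protein induced by TGF-beta, by 7.27, Tgfbi by 4.90 and Col1a1 by 4.48 above wild type, and Id2, a BMP target, by a log2 difference of -5.02. Other Id genes differed in direction. Id3 read 10.58 and 10.43 in the KD mutant, against 8.93 and 8.62 in wild type. Id1 read 8.60 and 8.43 in the KD mutant, against 10.61 and 10.41 in wild type. Both are named here outside the rule for list members. Tgfbi read 9.06 and 9.11 in the KD mutant and 3.84 to 4.44 on the other 8 arrays, all under the filter level. It therefore entered the test through the group in which it was high, and its difference is not measured exactly. These shares, like those of the Smads, stand beside 89.6% of all probe sets called. The median log2 difference was -0.91 for receptors, -0.64 for regulators, -0.44 for nuclear partners and 0.09 for targets, against -0.56 over all tested probe sets.

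**Figure D5:**
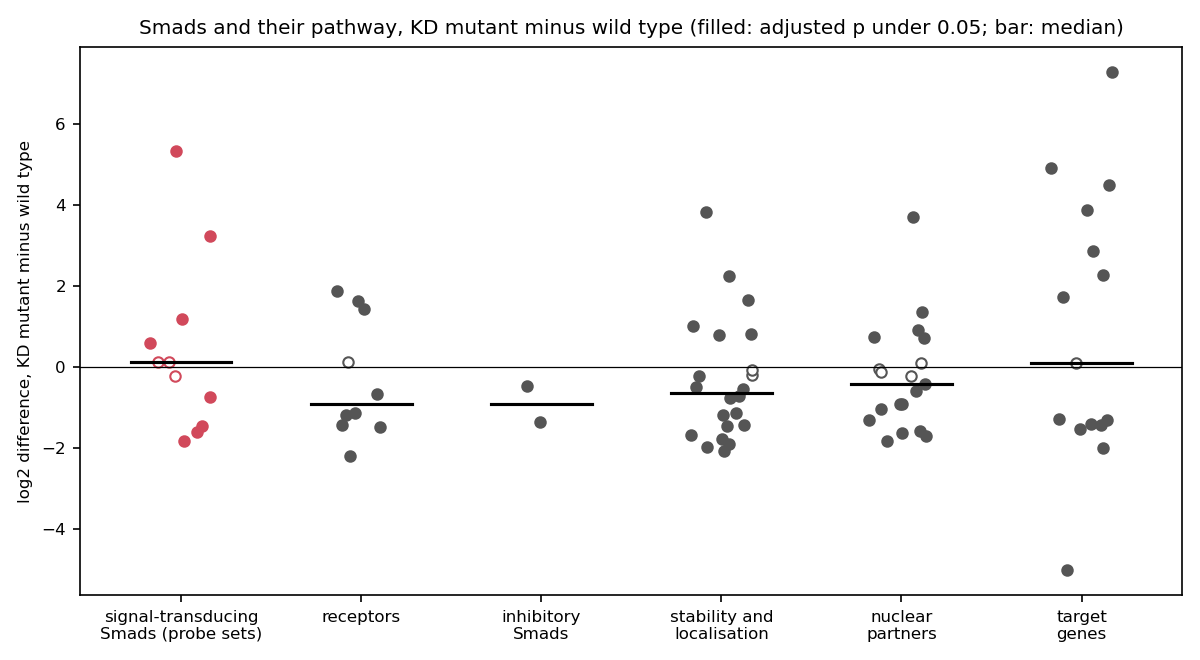
Log2 differences, KD mutant minus wild type (vertical axis), of the 11 tested Smad probe sets and of the tested genes of 5 pathway lists, 1 probe set per gene. Filled points passed at an adjusted p under 0.05 in limma, and bars are medians. Each group but the inhibitory Smads holds calls on both sides of 0.

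On the other 8 arrays a few genes of these lists passed where the Smads did not. Usp9x, a deubiquitinase known to act on Smad4, read 8.43 and 8.53 in the ED mutant, against 9.18 and 8.99 with empty vector, a fall by 0.61 on the log2 scale (adjusted p = 0.0423 in limma). It read 8.52 and 8.70 in the CD mutant and 8.87 and 8.74 in wild type, so all 6 receptor arrays lay below both empty vector arrays, where 13.5% of all tested probe sets kept the 3 groups and empty vector apart. It was the 1 of 22 regulators called in the ED mutant, beside 0.529% of all probe sets. Its call was lost without either ED mutant replicate (adjusted p = 0.331 and 0.152) or either empty vector replicate (adjusted p = 0.425 and 0.105), and also without any 1 CD mutant or wild-type BMPR2 array (adjusted p from 0.0618 to 0.0772).

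Among the targets, Id3 fell in the ED mutant, with 8.70 and 8.65 there, against 9.74 and 9.45 with empty vector (log2 difference -0.92, adjusted p = 0.0107 in limma, where 0.529% of all probe sets were called). Id3 encodes an inhibitor of differentiation that BMP signals induce. Its call was lost without ED mutant replicate 1 (adjusted p = 0.0932), ED mutant replicate 2 (adjusted p = 0.11) or empty vector replicate 1 (adjusted p = 0.175). With wild type, CD and ED together, Id3 was again the 1 of 15 targets called (log2 difference -0.85, adjusted p = 0.0126), beside 0.200% of all probe sets. That call was lost without CD mutant replicate 1 (adjusted p = 0.0547), ED mutant replicate 2 (0.0502), or empty vector replicate 1 (0.379) or 2 (0.0652). In the CD mutant Id3 missed the threshold (log2 difference -0.81, adjusted p = 0.0541). Id2 fell in the CD mutant, with 10.42 and 10.49 there, against 11.23 and 11.15 with empty vector (log2 difference -0.73, adjusted p = 0.0397). It was the 1 of 15 targets called in that comparison, beside 0.111% of all probe sets, and the call was lost without any 1 array other than those of the KD mutant (adjusted p from 0.0869 to 0.519). No member of the receptor, inhibitory Smad or nuclear partner lists passed in the 7 comparisons without the KD mutant. Without the KD mutant arrays in filter and fit, 1 nuclear partner was called in the CD mutant against empty vector, 1 for the 3 groups together and 1 between the ED and CD mutants. In that fit the called targets numbered 2 of 14 in the CD mutant, 1 of 14 in the ED mutant and 3 of 14 for the 3 groups together, each against empty vector, and 1 of 14 between the ED and CD mutants. Calls over all probe sets rose as well in that fit, to 43, 320, 106 and 145 in the same order. The fit to all 10 arrays had called 25, 119, 45 and 79.

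The genes whose values ran most like each Smad were taken over the 8 arrays of the CD mutant, ED mutant, wild type and empty vector, from 12012 genes with a tested probe set. For Smad2 they were Actr2, Nek9 and Ndufs8, with Pearson correlations of 0.954 to 0.960. For Smad3 1389127_at they were Cul5, Ppp4r2 and Cdkn1b, at 0.954 to 0.961. For Smad4 1386984_at they were Hps6, Hmgn2 and Mrps18a (0.943 to 0.948), for Smad1 1389373_at Lsm7, Ttc19 and Zgpat (0.969 to 0.977), and for Smad5 1378255_at Myl9, Epm2aip1 and Dscc1 (0.930 to 0.960). With 8 arrays that share their normalization, between 12 and 39 genes exceeded 0.9 for each Smad, while each Smad's own range over these arrays was 0.29 to 0.41. Smad9 was not included, because neither of its probe sets reached the filter level.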

How the data were processed

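Total RNA, labelled with biotin, was read on 1-colour Affymetrix expression arrays, as the labels record. The submitters' processing notes name RMA, and the authors' deposited numbers are its log2 values per probe set; neither a version nor the set of arrays processed jointly is stated. As a method, RMA removes background signal, brings arrays processed jointly to a shared distribution and compresses differences at low signal. The deposited values of the 10 arrays did not share 1 distribution. Medians were 4.95 and 4.94 on the KD mutant arrays, against 5.31 to 5.35 on the other 8. The SD across probe sets was 2.26 and 2.27 in the KD mutant, against 1.88 to 1.90. Detection calls and scanner intensities were not used.

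Smad probe sets were taken from the platform annotation, and Entrez identifiers linked other symbols to current names in a RefSeq gene table (GRCr8; 20758 of 20826 probe sets with 1 gene; 436 have several and 9780 none). After 57 Affymetrix controls were left out, limma 3.58.1 in R 4.3.3 was fitted to all 10 arrays with 5 group means (lmFit, contrasts, eBayes; 5 residual degrees of freedom, 11.4 after moderation), in 9 comparisons, with two-sided p-values. The step was tested on simulated data with known changes. SDs are over 2 arrays, and SE is the moderated standard error. For a listed gene with several probe sets, the one of highest mean was used. By rule, the text names every Smad probe set, up to 4 called list members with the largest difference in KD mutant against wild type, in other comparisons up to 2 members by adjusted p, of which those called are given, and 3 genes most like each Smad. The members, lists and tests were chosen with earlier results of these data known. The main fit did not pair arrays by replicate number, since the labels do not say that these numbers pair them. Same-numbered deviations from group means correlated at -0.03 to 0.14 between groups, which does not settle whether they do.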

Additional observations from a re-analysis of the deposited data

How the results depend on the processing

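Settings varied were the filter (none, or the 60th percentile), scaling (quantile, or array medians set equal, called centring), the variance model (trend and robust), a replicate block, the arrays fitted (only those compared, or none of the KD mutant), a threshold of 0.01, and single arrays left out. In the 7 comparisons without the KD mutant, 0 Smad probe sets were called under every one. The KD mutant count against wild type was 8 in the deposited values, 7 to 11 under the other settings and 8 to 9 without single arrays; against empty vector it was 10, 8 to 11, and 9 to 10. With a replicate block these counts were 8 and 11. The added call was Smad5 1378255_at (0.27, adjusted p = 0.0244), and the labels do not say that the numbers pair arrays. The number of Smad probe sets tested varied with the setting. Against wild type, 7 of 9 were called with the 60th percentile filter, 9 of 13 without a filter and 11 of 12 after quantile normalization. Among differences called in the main fit or under the alternative, signs reversed for 3 probe sets. Another 48 values of Smad probe sets changed sign without a call on either side. After quantile normalization, KD mutant minus wild type was -0.40 for Smad5 1378255_at (adjusted p = 0.016) and -0.0705 for Smad4 1386984_at. KD mutant minus empty vector for Smad5 1369276_at was 0.0716 after quantile normalization and 0.0709 after centring. The cause was not tested. All 4 pathway calls without the KD mutant were lost at the threshold of 0.01. Those of Usp9x and Id2 were also lost without a filter (adjusted p = 0.0639 and 0.0614) and with a replicate block (0.0619 and 0.0572). The same held with only the groups compared (0.0817 and 0.17), and for Usp9x after centring (0.0512). These alternatives were chosen for the pathway calls after seeing the data. Signal over background could not be judged without detection calls, which limits Smad9 and the dim groups of Smad3 and Smad5.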
